A study of Homo sapiens with 12 samples.

Results

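UTP3 and 48 other genes for assembly factors of the small ribosomal subunit were followed in RNA sequencing of 2 human cell lines of oesophageal squamous cell carcinoma. The 49 genes were taken from a list of processome proteins and late factors that complete the small subunit. They were matched by symbol among 38516 genes of the deposited table, and all 49 were found. The list was chosen with earlier results of these data known, so the choice was not independent of the data. In KYSE150 and in KYSE510, the study set control cells beside cells with HCP5, a long non-coding RNA, silenced. The series title ties HCP5 to UTP3, to MYC-driven transcription and to apoptosis. The 12 libraries fell into 4 groups of 3: KYSE150 control, KYSE150 HCP5 silenced, KYSE510 control and KYSE510 HCP5 silenced. All cells were grown in RPMI-1640 with serum. The titles of control and silenced libraries alike begin with "sh", an abbreviation left unexplained, and neither the silencing reagent nor its promoter is given. The labels do not say whether the replicates came from separate cultures, so the p-values measure only the spread between these libraries.

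The small-subunit processome is a large particle that gathers on the nascent ribosomal RNA precursor in the nucleolus. The U3 small nucleolar RNA, with fibrillarin and its partners, pairs with the precursor, and the UTP-A, UTP-B and UTP-C complexes, the MPP10 complex and many single factors fold it, modify it and guide its cleavage. UTP3 is the human counterpart of yeast Sas10, a nucleolar member of that particle. Late factors such as NOB1, LTV1 and the RIO kinases complete the 40S subunit in the cytoplasm. Genes for ribosome assembly are known targets of MYC, which binds the E-box motif.

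The promoter letters of these genes are shown first, because the series title names MYC. The motif searched was the E-box CACGTG, which reads the same on both strands, in RefSeq windows from 250 bases before to 50 bases after each start (GRCh38.p14). Of the 49 genes, 44 had a window, and 20 of these (45.5%) held the motif. The share was 12.8% of the windows of 9560 genes tested here and 8.77% of all 27305 windows. It was 27.3% in 22 other small-subunit assembly genes and 26.5% in 49 genes of large-subunit assembly and RNA polymerase I. A match is a description of letters and not evidence that a factor binds there. The windows shown are for genes described in detail and for members of several complexes. Each is 30 bases, 5′ to 3′ on the gene's strand, with the E-box in capitals.
FBL: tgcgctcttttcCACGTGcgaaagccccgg
NOP14: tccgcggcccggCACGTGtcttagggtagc
NAT10: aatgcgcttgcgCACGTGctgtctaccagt
RRP9: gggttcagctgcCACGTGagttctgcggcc
LTV1: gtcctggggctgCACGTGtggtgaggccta
ESF1: gggtgtgagcccCACGTGaggcttggtagg
WDR43: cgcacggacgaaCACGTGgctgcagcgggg
UTP18: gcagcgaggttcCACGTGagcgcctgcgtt
NOL6: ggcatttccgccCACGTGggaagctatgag
PWP2: tgagctgcggcaCACGTGcgacggccgtga

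These windows lie at chr19:39846356-39846385 on the minus strand (FBL), chr4:2963374-2963403 minus (NOP14), chr11:34105602-34105631 plus (NAT10), chr3:51941892-51941921 minus (RRP9) and chr6:143843354-143843383 plus (LTV1). The others lie at chr20:13784890-13784919 minus (ESF1), chr2:28894658-28894687 plus (WDR43), chr17:51260538-51260567 plus (UTP18), chr9:33473894-33473923 minus (NOL6) and chr21:44107388-44107417 plus (PWP2). The bases around the hexamer differ from gene to gene, while its place is much alike in the windows shown, all near the start. Counting the base at the start as 0, the E-box begins at 7 in FBL, 13 in ESF1, 4 in WDR43, 2 in PWP2 and 14 in NOL6. In NAT10 it begins at -15, just before the start, and in RRP9 at -5, so that it spans the start. Matches farther before the start are not shown, at -241 in UTP14A, -203 in IMP4, -157 in AATF and -89 in UTP18. Of the 22 matches in the assembly genes, 16 (72.7%) ended at or after the start, against 12.7% of 1486 matches in the genes tested. UTP3 and KRR1 held no such letters in their windows.

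**Figure D1:**
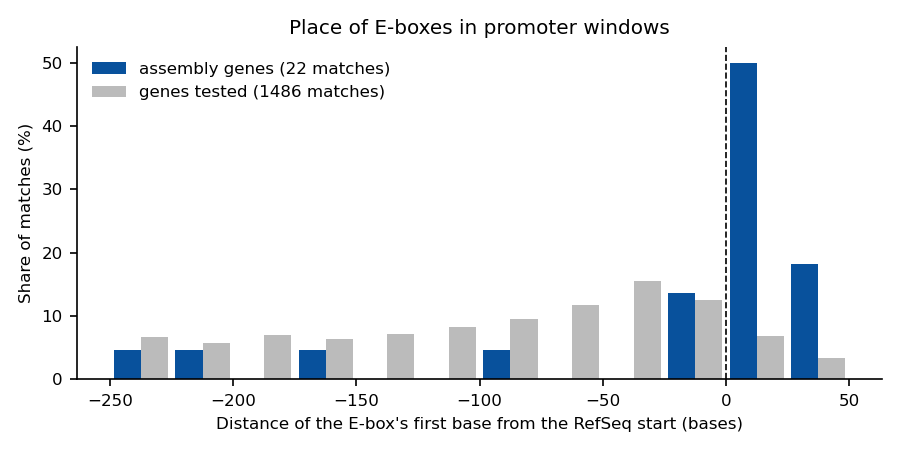
Place of E-box matches in promoter windows, as the share of matches (%, vertical axis) by distance of the first motif base from the RefSeq start in bases (horizontal axis, 25-base bins), for the 22 matches of the assembly genes (blue) and 1486 matches of the genes tested (grey). The bin from 0 to 25 holds 11 of the assembly genes' 22 matches and 6.80% of those of the genes tested.

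Recovered read totals ran from 20035025 to 28202422 per library, and between 143 and 14560 reads lay behind each RPKM value of the 49 genes (RPKM scales reads by the length of the exons and the size of the library). In KYSE150 each silenced library had more reads than each control, 26281327 to 28202422 against 20035025 to 22700935. In KYSE510 the totals overlapped, at 21116344 to 24880410 in silenced libraries and 24055358 to 27513023 in controls. Depth and silencing thus run together in KYSE150, and the part of depth in the results was not tested. HCP5, the silenced gene, was low throughout: 0.770 ± 0.0220 RPKM (SD, n = 3) in KYSE150 control and 0.437 ± 0.133 in silenced libraries, and 1.39 ± 0.470 and 0.801 ± 0.257 in KYSE510. Its log2 changes of -0.45 and -0.53 had adjusted p = 0.267 and 0.646 (limma). Averaged over the lines, HCP5 had -0.49, with adjusted p = 0.185 (limma), and fell with the replicate number as a block (0.0295). In a voom fit on recovered reads with the block it fell in both lines, by 0.92 in KYSE150 and 0.73 in KYSE510 on the log2 scale, with adjusted p = 0.0135 and 0.0343 (limma). Of 8 squamous markers, 7 reached a mean of 1 RPKM in each group; the other was SOX2 in KYSE150 and PKP1 in KYSE510, both near 0 there. The summed squamous level was 515 to 1057 RPKM in KYSE150 control and 803 to 1969 in silenced libraries, and 292 to 349 and 449 to 563 in KYSE510. All 4 fibroblast and 4 leukocyte markers stayed under a mean of 1 RPKM, PDGFRA was at 0 in every library, and of 3 endothelial markers only CDH5 passed that level, in KYSE510. The part of these markers in the results was not tested.

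All 49 genes passed the filter of at least 0.5 RPKM in at least 3 libraries. Their mean levels ran from 1.79 RPKM for RCL1 to 135 RPKM for FBL, with a median of 21.4 RPKM against 3.47 for all 17823 genes tested, and 38 of 49 lay above 10 RPKM. RCL1, a cyclase-like protein of the processome, and RIOK2, a late kinase, were the lowest. LTV1, which helps carry the pre-40S particle to maturity, and FBL, the methyltransferase fibrillarin, were the highest. Replicates lay close together: the median coefficient of variation of the 49 genes was 5.87% to 8.82% in the 4 groups, against 10.8% to 14.6% for all genes tested. IMP3, a small protein of the MPP10 complex, had the widest spread in 3 of the groups.

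UTP3 lies on chr4:70688479-70690551 (GRCh38, plus strand) and was the only one of the 49 genes with a single exon, of 2073 bases. In KYSE150 it stood at 81.4, 83.5 and 69.9 RPKM in control replicates 1 to 3 and at 72.1, 61.5 and 67.4 RPKM in silenced replicates 1 to 3. The silenced libraries were lower in 3 of 3 same-numbered pairs, but the groups overlapped, since the third control lay under the first silenced library. The log2 difference was -0.22 ± 0.10 (SE), with adjusted p = 0.264 (limma) and p = 0.2 in an exact two-sided permutation test, where 3 against 3 cannot go below 0.1. It passed in 1 alternative only, a limma-voom fit on recovered reads with the replicate number as a block, at -0.33 and adjusted p = 0.0365, a fit in which 15.2% of all genes passed.

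In KYSE510 the level of UTP3 was 48.9, 49.97 and 44.0 RPKM in the controls and 44.7, 52.5 and 50.6 RPKM in the silenced libraries. The groups overlapped, and 1 of 3 pairs was lower. The log2 difference was 0.05 ± 0.10, with adjusted p = 0.976 (limma) and exact permutation p = 0.5, and without the third control it was -0.0080. The difference between the changes of the lines was 0.27 ± 0.14, with adjusted p = 0.423 (limma). UTP3 was lower in KYSE510 than in KYSE150 control cells, with no overlap. That log2 difference was -0.71 ± 0.10, adjusted p = 6.42e-05 (limma), while the exact permutation p was 0.1, the smallest possible.

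Across the 49 genes, KYSE150 levels were mostly lower after silencing, by small amounts, and no single gene passed the test. The log2 change was below 0 for 42 of 49 genes in KYSE150, against 33.9% of all genes tested, with a median of -0.13 against 0.08 over all genes. In KYSE510 it was below 0 for 35 of 49, against 56.8% of all genes, with a median of -0.05 against -0.02. The changes ran from -0.44 (ESF1) to 0.43 (IMP3) in KYSE150 and from -0.24 (KRR1) to 0.17 (LTV1) in KYSE510. Both lines shared the sign below 0 for 28 genes, and none lay above 0 in both. The shares of all genes for these joint counts are not given. With most of the 49 below 0 in each line, the counts do not show agreement between the lines. Since the 49 genes were chosen with earlier results of these data known, their counts and medians against all genes are a description only.

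With limma, 0 of 49 genes passed an adjusted p of 0.05 in KYSE150, where 0.499% of all genes passed, and 0 in KYSE510, where 0.0393% did. At an unadjusted p under 0.05 the counts were 13 of 49 (18.1% of all genes) and 2 of 49 (6.35% of all genes). The KYSE150 count was 8 without the first control or the second silenced library. It was 20 without the first silenced library and 23 without the third control. The shares of all genes at that threshold in these fits are not given, so the 18.1% does not apply to them. Without the third control, 7.22% of all genes passed an adjusted p of 0.05 in KYSE150. Same-numbered control and silenced libraries deviated together, least so in pair 2 of KYSE150, and the replicate number was also fitted as a block. With the block, 5 of 49 genes passed in KYSE150 and all 5 fell: KRR1, NOP14, NAT10, FBL and WDR3. The background of genes that fell in that fit was 1.66%. In KYSE510 the block gave 0 of 49, with 0.112% of all genes passing. KRR1 alone passed in KYSE150 with centring, with quantile normalization and with voom (0.651%, 0.864% and 0.903% of all genes). With the block and centring 3 fell, KRR1, FBL and WDR75, where 4.76% of all genes passed and 2.9% fell.

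**Figure D2:**
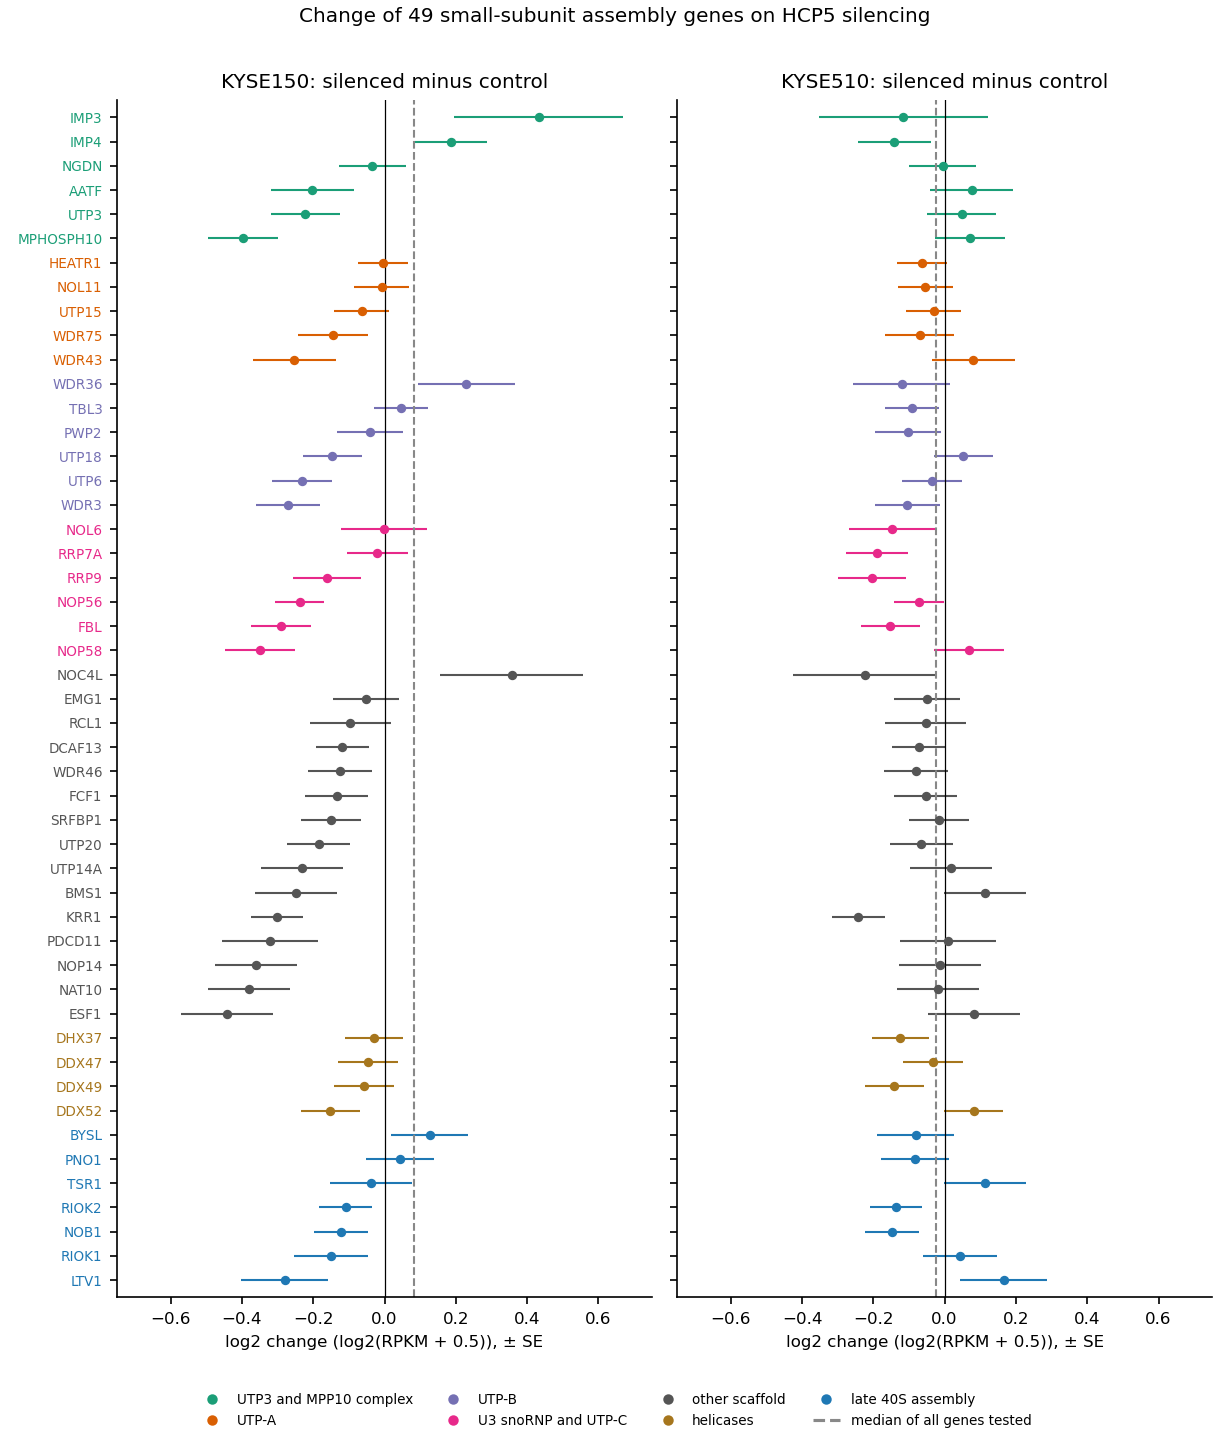
Log2 change with its SE (horizontal axis, silenced minus control on the log2(RPKM + 0.5) scale) for each of the 49 genes (rows, coloured by role) in KYSE150 (left) and KYSE510 (right), with the median of all genes tested as a dashed line. In KYSE150, 42 genes lie left of 0, and in KYSE510, 35 do.

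The scaling of the libraries moved the whole distribution in KYSE150. The median of all genes was 0.08 as deposited and -0.05 after each library was centred on its median, so levels are best read relative to other genes. The median of the 49 genes minus that of all genes was -0.22 in KYSE150, and -0.20 with quantile normalization and -0.25 with voom. After centring, 45 of 49 genes lay below 0 against 58.9% of all genes. In KYSE510 the same difference of medians was -0.03, and it ran from -0.06 to 0.02 when single libraries were left out, changing sign without the first control. Of the 49 genes, 31 lay below 0 there after centring, against 49.3% of all genes, and 28 with voom, against 46.6%.

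**Figure D3:**
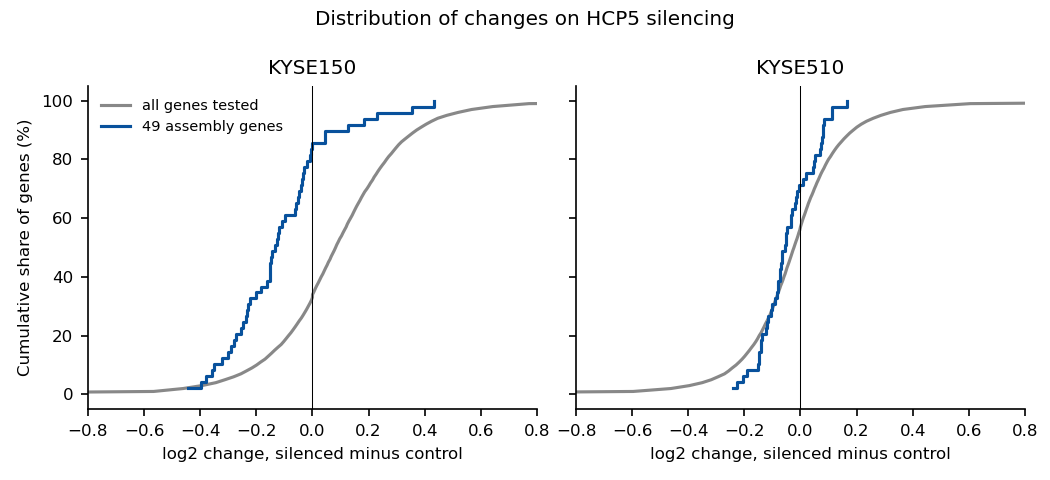
Cumulative share of genes (%, vertical axis) by log2 change, silenced minus control (horizontal axis), for the 49 assembly genes (blue steps) and all genes tested (grey) in KYSE150 and KYSE510. The blue curve lies left of the grey one in KYSE150 (medians of -0.13 and 0.08), and the curves cross in KYSE510, where the blue one is narrower (medians of -0.05 and -0.02).

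Summed over the 49 genes, the level was 1858 ± 92.1 RPKM in KYSE150 control and 1643 ± 98.3 in silenced libraries, or 88.4% of control. In KYSE510 it was 1528 ± 104 and 1501 ± 42.7 RPKM, or 98.2%. Per library the sums were 1951, 1856 and 1766 RPKM in KYSE150 controls and 1754, 1570 and 1603 RPKM after silencing. The groups did not overlap, but the third control and the first silenced library nearly met. In bulk RNA, fewer cells of a type and less RNA per cell cannot be told apart.

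Pairs of same-numbered libraries showed how evenly this ran. In KYSE150, 42, 35 and 38 of the 49 genes were lower in the silenced library of pairs 1, 2 and 3, against 40.1%, 31.1% and 36.7% of all genes. In KYSE510 the counts were 44, 31 and 24, against 41.0%, 59.6% and 60.4%. Pair 1 of KYSE510 thus held more lower values than the other pairs of that line, and its control was the highest of its group for 32 of 49 genes, against 20.7% of all genes. In KYSE150 the third control was the lowest of its group for 23 of 49 genes, against 22.7% of all genes, the second for 26, against 44.4%, and the first for 0, against 33.0%. The second silenced library was the lowest of its group for 33 of 49 genes, against 24.1% of all genes. Without it, 37 of 49 genes lay below 0, with a median of -0.10. Without the third KYSE150 control, 36 of 49 genes lay below 0 there, against 31.7% of all genes, and 3 fell (MPHOSPH10, NOP58 and ESF1), where 1.76% of all genes fell.

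In 9 of 49 genes the silenced library was lower in 6 of 6 pairs, against 2.77% of all genes tested. These were WDR75, WDR3, FBL, RRP9, UTP20, DCAF13, KRR1, NOB1 and RIOK2. In KYSE150, all 3 silenced libraries lay below all 3 controls for 13 of 49 genes (5.47% of all genes), and above for 0 (13.7%). In KYSE510 they lay below for 10 (6.87%) and above for 1, the helicase DDX52 (5.22%). KRR1, WDR3 and RIOK2 were below without overlap in both lines. The share of all genes below in both is not given, so this joint count is a description only.

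In the group of UTP3, its kin and the MPP10 complex, 4 of 6 genes lay below 0 in KYSE150 and 3 of 6 in KYSE510. MPHOSPH10, the scaffold protein MPP10 itself, stood at 28.0, 28.3 and 23.2 RPKM in KYSE150 controls and at 22.1, 17.7 and 20.2 RPKM after silencing, with no overlap. Its log2 change was -0.40 ± 0.10, with adjusted p = 0.0986 (limma) and 0.0503 with the block. Its KYSE510 levels were 19.2, 17.1 and 18.2 RPKM in controls and 19.1, 19.0 and 19.3 RPKM, so that the groups overlapped. That change was 0.07 ± 0.10, adjusted p = 0.963 (limma).

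The partners of MPP10 lay above 0 in KYSE150, without passing. IMP3 stood at 7.998, 6.68 and 11.7 RPKM in the controls and 9.46, 11.4 and 15.0 RPKM after silencing, and was higher in 3 of 3 pairs although the groups overlapped. Its change was 0.43 ± 0.24, adjusted p = 0.352 (limma), and 0.34 with 0.0245 by voom with the block. IMP4 stood at 33.9, 26.4 and 35.9 RPKM and then at 36.7, 36.5 and 35.6 RPKM, with overlap and a change of 0.19 ± 0.10, also at adjusted p = 0.352 (limma). The IMP4 value rested on the second control, and was 0.054 without it and 0.056 after centring. In IMP3, 59.3% of exon bases are shared with genes on the opposite strand, and the use of strand in counting is not given, so its value is uncertain. SNX33, which shares 31.2% of them, had a change of 0.26 in the same direction.

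UTP-A, the complex that starts assembly and also acts on transcription of ribosomal DNA, had 5 of 5 genes below 0 in KYSE150 and 4 of 5 in KYSE510, with medians of -0.06 and -0.05. WDR75 of this complex stood at 11.5, 10.6 and 13.3 RPKM in KYSE150 controls and at 10.3, 10.51 and 10.99 RPKM after silencing. The KYSE510 levels were 9.72, 10.8 and 11.4 RPKM in controls and then 9.35, 9.84 and 11.1 RPKM. Each pair was lower and each pair of groups overlapped, and the average change of -0.11 ± 0.07 had adjusted p = 0.624 (limma). UTP-B, a scaffold of WD-repeat proteins that binds U3 and the precursor, had 4 of 6 genes below 0 in KYSE150 and 5 of 6 in KYSE510.

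WDR3 of UTP-B stood at 36.0, 31.8 and 30.5 RPKM in KYSE150 controls and at 30.4, 24.3 and 26.6 RPKM after silencing. The groups did not overlap, with the third control just above the first silenced library. Its change was -0.27 ± 0.09, adjusted p = 0.182 (limma), and 0.0492 with the block, where it fell. In KYSE510 it stood at 11.95, 11.1 and 11.5 RPKM and then at 10.3, 10.7 and 11.02 RPKM, again without overlap, with a change of -0.10 ± 0.09 and adjusted p = 0.942 (limma). SPAG17 on the opposite strand shares 17.1% of the exon bases of WDR3 and had a change of -0.29 in KYSE150.

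The U3 particle and UTP-C had 6 of 6 genes below 0 in KYSE150 and 5 of 6 in KYSE510, with medians of -0.20 and -0.15. FBL, which methylates ribosomal RNA at sites set by box C/D guides, stood at 119, 114 and 112 RPKM in KYSE150 controls and at 93.3, 102 and 87.2 RPKM after silencing, without overlap. Its change was -0.29 ± 0.08, adjusted p = 0.131 (limma), and 0.0458 with the block. KYSE510 controls stood at 193, 172 and 159 RPKM and silenced libraries at 162, 156 and 152 RPKM, lower in 3 of 3 pairs with overlapping groups. That change was -0.15 ± 0.08, adjusted p = 0.862 (limma).

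NOP58, a core protein beside FBL, stood at 52.4, 60.6 and 45.7 RPKM in KYSE150 controls and at 44.1, 39.4 and 40.04 RPKM after silencing, without overlap. KYSE510 levels were 64.0, 59.6 and 65.0 RPKM in controls and 62.6, 68.5 and 66.8 RPKM, with overlap. The changes were -0.35 ± 0.10 and 0.07 ± 0.10, with adjusted p = 0.125 and 0.964 (limma). RRP9, which binds the U3 RNA itself, was lower without overlap in KYSE510: 46.8, 43.4 and 41.4 RPKM in controls and 37.6, 36.8 and 39.5 RPKM after silencing, without overlap. That change was -0.20 ± 0.10, adjusted p = 0.806 (limma), and in KYSE150 it was -0.16 with overlapping groups and adjusted p = 0.383. After centring the order turned, with -0.29 in KYSE150 and -0.18 in KYSE510, and with voom and the block the KYSE150 change of -0.27 passed (adjusted p = 0.0240, limma). RRP7A of UTP-C was also lower without overlap in KYSE510, at 37.4, 34.9 and 35.8 against 31.8, 29.3 and 33.6 RPKM, with adjusted p = 0.786 (limma). SERHL on the opposite strand shares 15.9% of the exon bases of RRP7A and had a change of -0.24 in KYSE510.

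Among 15 other scaffold genes, 14 lay below 0 in KYSE150 and 11 in KYSE510, and 3 of them fell in KYSE150 with the block. KRR1, a protein with an RNA-binding KH domain, stood at 10.8, 10.4 and 11.3 RPKM in KYSE150 controls and at 8.69, 8.25 and 9.11 RPKM after silencing. KYSE510 controls had 7.65, 7.37 and 7.78 RPKM and silenced libraries 6.67, 5.86 and 6.55 RPKM. In both lines each silenced library lay below each control. The changes were -0.30 ± 0.07 and -0.24 ± 0.07, with adjusted p = 0.0966 and 0.471 (limma). With the block the KYSE150 change passed at 0.0324 and the KYSE510 change had 0.153.

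Averaged over the lines, KRR1 changed by -0.27 ± 0.05, with adjusted p = 0.0508 (limma) and 0.0203 with the block. No other of the 49 genes passed with the block on that average, where 0.679% of all genes fell. Without the block 0 of 49 passed on the average, where 0.539% of all genes did, and 11 had an unadjusted p under 0.05 (11.5% of all genes). That count was 5 without the first KYSE150 control, the second KYSE150 silenced or the second KYSE510 silenced library. It was 6 without the first KYSE510 control and 7 without the third KYSE150 silenced library. The shares of all genes in these fits are not given, so the 11.5% does not apply to them. KRR1 alone passed on this average with a pseudocount of 1, with centring, with quantile normalization and with voom, where 0.561%, 0.696%, 0.78% and 0.971% of all genes passed. With voom and the block 4 genes passed, all lower (KRR1, FBL, RRP9 and WDR3), where 6.9% of all genes passed and 2.43% fell. With centring and the block 2 passed, both lower (KRR1 and FBL), where 2.42% of all genes passed and 1.18% fell. The adjusted p for KRR1 on this average ran from 0.000835 to 0.141 over the alternatives. GLIPR1 on the opposite strand shares 14.1% of the exon bases of KRR1, and its changes were 0.03 in KYSE150 and -0.14 in KYSE510, with adjusted p = 0.954 and 0.953 (limma). KRR1 lies at chr12:75490861-75511636 on the minus strand.

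NOP14, which works with NOC4L and EMG1, stood at 72.5, 69.1 and 63.4 RPKM in KYSE150 controls and at 61.1, 48.3 and 50.6 RPKM after silencing, without overlap. Its change was -0.36 ± 0.12, adjusted p = 0.163 (limma), and 0.0445 with the block. NAT10, the acetyltransferase of 18S ribosomal RNA, stood at 62.4, 62.3 and 54.3 RPKM and then at 50.5, 42.7 and 44.1 RPKM, also without overlap. Its change was -0.38 ± 0.11, adjusted p = 0.145 (limma), and 0.0452 with the block. In KYSE510 both had values near 0: -0.01 ± 0.12 for NOP14 and -0.02 ± 0.11 for NAT10. The antisense gene NOP14-AS1 shares 17.1% of the exon bases of NOP14 and had a change of -0.33 in KYSE150.

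NOC4L, a NOP14 partner, was the scaffold gene above 0 in KYSE150. It stood at 10.3, 7.68 and 13.8 RPKM in controls and at 10.8, 14.0 and 15.6 RPKM after silencing, higher in 3 of 3 pairs with overlap, and its change was 0.36 ± 0.20, or 0.16 without the second control. In KYSE510 it stood at 14.2, 16.2 and 19.7 RPKM and then at 13.6, 13.0 and 15.8 RPKM, lower in 3 of 3 pairs, a change of -0.22 ± 0.20. The difference between the lines was -0.58 ± 0.28, adjusted p = 0.413 (limma). BMS1, a GTPase of the processome, stood at 43.6, 35.0 and 35.5 RPKM in KYSE510 controls and at 42.3, 39.3 and 41.3 RPKM after silencing, with overlap and a change of 0.11 ± 0.11. Its KYSE150 change was -0.25 ± 0.11, and 17 annotated pseudogenes carry its name, so its reads may be shared.

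**Figure D4:**
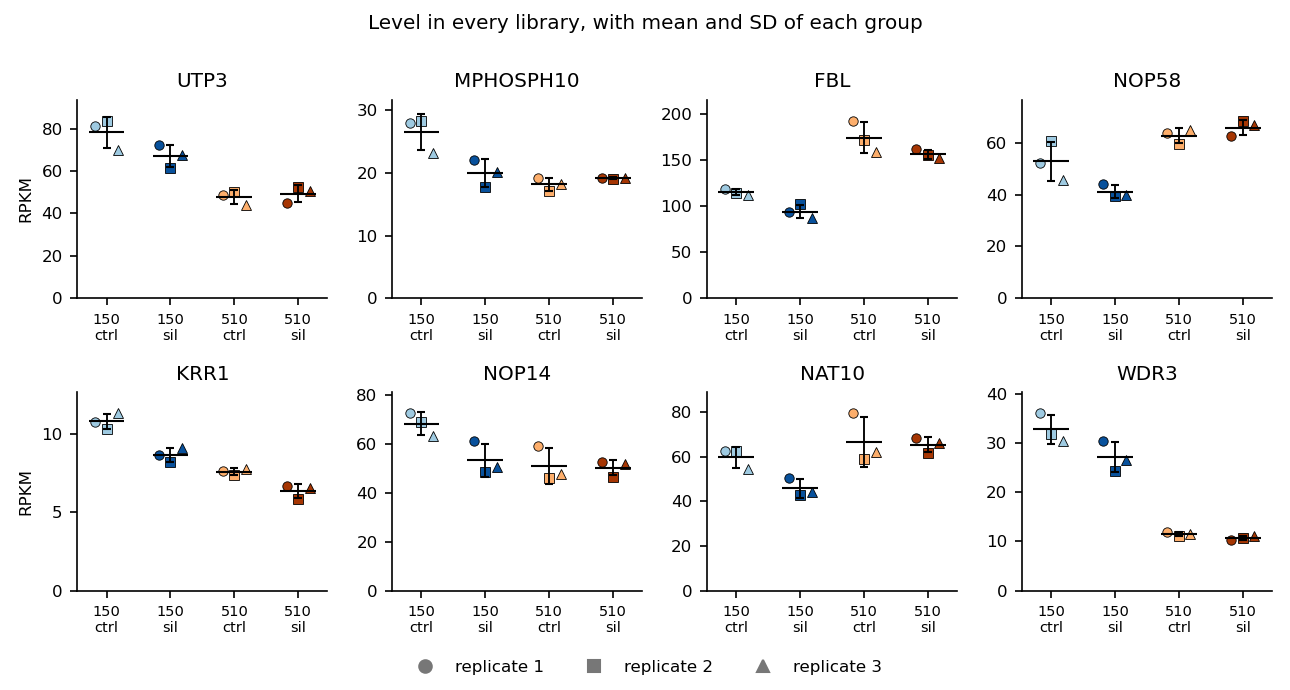
Level in RPKM (vertical axes from 0) of 8 assembly genes in each of the 12 libraries, by group (horizontal axis: KYSE150 and KYSE510, control and silenced), with marker shape for replicate number, the mean as a line and the SD as a bar. Apart from UTP3, the genes shown were picked for low p-values or calls with the block in KYSE150. Their separation there thus follows in part from the choice. In KYSE150 the silenced libraries of 7 of these genes lie below all controls, while UTP3 overlaps. Of the 49 genes 13 did so, and 5.47% of all genes tested. KRR1 and WDR3 do not overlap in KYSE510 either.

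The 4 RNA helicases, enzymes that unwind the precursor or release U3, lay at -0.15 to -0.03 in KYSE150 and -0.14 to 0.08 in KYSE510. DDX49 stood at 30.02, 28.8 and 31.8 RPKM in KYSE150 controls and at 31.2, 27.3 and 28.6 RPKM after silencing, with overlap. In KYSE510 it stood at 16.2, 13.4 and 14.9 RPKM and then at 13.7, 12.9 and 13.6 RPKM, lower in 3 of 3 pairs with overlap. Its average change was -0.10 ± 0.06, adjusted p = 0.582 (limma).

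Of 7 late factors, 5 lay below 0 in KYSE150 and 4 in KYSE510. NOB1, the nuclease that makes the final cut at the end of 18S ribosomal RNA, stood at 64.3, 60.5 and 70.5 RPKM in KYSE150 controls and at 60.6, 57.5 and 60.9 RPKM after silencing. In KYSE510 it stood at 45.0, 42.1 and 43.0 RPKM and then at 39.1, 36.7 and 41.7 RPKM. It was lower in 6 of 6 pairs, without overlap in KYSE510 alone, and its average change was -0.14 ± 0.05, adjusted p = 0.359 (limma). CTD-2033A16.3 on the opposite strand shares 20.2% of the exon bases of NOB1, and its changes were 0.08 in KYSE150 and -0.18 in KYSE510. LTV1 stood at 120, 118 and 92.5 RPKM and then 104, 82.3 and 85.2 RPKM in KYSE150, and at 107, 90.2 and 86.2 RPKM and then 105, 105 and 106 RPKM in KYSE510. Its changes of -0.28 ± 0.12 and 0.17 ± 0.12 had adjusted p = 0.264 and 0.927 (limma). LTV1 shares 34.8% of its exon bases with other genes on the same strand, and RP3-468K18.7, with 27.7% of them, had changes of -0.35 and 0.20, so these values may rest in part on the same reads. TSR1, a GTPase-like factor, stood at 61.7, 49.1 and 52.6 RPKM in KYSE510 controls and at 60.9, 53.3 and 62.3 RPKM after silencing, with overlap and a change of 0.11 ± 0.11.

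Whether silencing acted unlike in the lines was tested as the difference of the changes, KYSE510 minus KYSE150. With limma, 0 of 49 genes and 0% of all genes passed, and 7 of 49 had an unadjusted p under 0.05 (12.2% of all genes). With the block the counts were 0 and 15 (25.9% of all genes). The lowest unadjusted value was that of MPHOSPH10, 0.47 ± 0.14 with adjusted p = 0.394 (limma). In the voom fit with the block 7 genes passed, all with the higher change in KYSE510, where 4.14% of all genes did: MPHOSPH10, LTV1, NOP58, ESF1, BMS1, NOP14 and NAT10.

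Differences between the control cells of the lines were far larger than those after silencing. With limma, 37 of 49 genes passed an adjusted p of 0.05, against 62.0% of all genes: 29 were lower in KYSE510 (33.7% of all genes) and 8 higher (28.3%). After centring 24 were lower and 5 higher, but the shares of all genes in that fit are not given. The median log2 difference was -0.34, against -0.07 over all genes, and the summed level in KYSE510 was 82.3% of that in KYSE150. MYC stood at 7.47 ± 2.58 RPKM in KYSE150 control and 67.5 ± 11.7 RPKM in KYSE510 control. With the block MYC rose in KYSE150 on silencing (0.27, adjusted p = 0.0439, limma, against 0.620 without it and 0.146 by voom with the block). The part of MYC in these levels was not tested.

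WDR3 had the largest difference, 32.8 ± 2.89 RPKM in KYSE150 and 11.5 ± 0.413 in KYSE510, a log2 value of -1.47 ± 0.09 with adjusted p = 1.06e-07 (limma). SPAG17, which overlaps it, differed by -1.20. DCAF13, another WD-repeat factor, stood at 22.2 ± 1.92 and 8.84 ± 0.169 RPKM, a difference of -1.28 ± 0.08 with adjusted p = 6.93e-08. DDX47, a helicase, stood at 28.5 ± 2.14 and 13.3 ± 0.620 RPKM, a difference of -1.07 ± 0.08 with adjusted p = 7.17e-07. APOLD1 shares 36.5% of the exon bases of DDX47 on the same strand and differed by -1.06, so these 2 values may rest in part on the same reads.

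Higher in KYSE510 were NOC4L, FBL and RRP7A in particular. NOC4L stood at 10.6 ± 3.05 RPKM in KYSE150 and 16.7 ± 2.82 in KYSE510, a log2 difference of 0.66 ± 0.20 with adjusted p = 0.0135 (limma), and 0.0582 without the third KYSE510 control and 0.0551 without the second KYSE150 control. FBL stood at 115 ± 3.196 and 175 ± 16.8 RPKM, a difference of 0.60 ± 0.08 with adjusted p = 7.59e-05 (limma). RRP7A stood at 24.1 ± 2.76 and 36.0 ± 1.26 RPKM, a difference of 0.57 ± 0.09 with adjusted p = 0.000135 (limma). SERHL, which overlaps it on the opposite strand, differed by 0.40. By role, the U3 particle and UTP-C had 4 of 6 genes higher in KYSE510 and 2 lower. UTP3 and the MPP10 group had 5 of 6 lower and 0 higher, and UTP-A 3 of 5 lower and 0 higher. Over all genes 28.3% were higher and 33.7% lower, and with so few genes a role these counts are a description only. Of the lowest and highest genes, RIOK2 was lower in KYSE510 by 0.37 on the log2 scale, while RCL1 and LTV1 had adjusted p = 0.429 and 0.143 (limma).

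**Figure D5:**
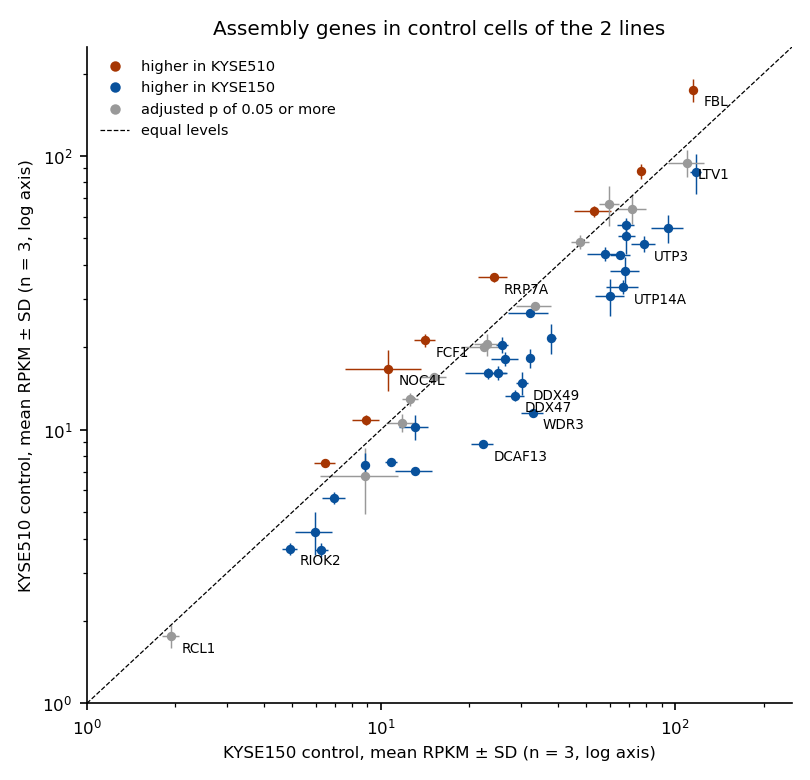
Mean level in KYSE510 control (vertical axis) against KYSE150 control (horizontal axis), both in RPKM on log axes with SD bars (n = 3), for the 49 genes, coloured by the limma call, with equal levels as a dashed line. More genes lie below the line: 29 are lower in KYSE510 and 8 higher.

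Other small-subunit assembly genes, 30 in a list of their own, were set beside the 49. In KYSE150, 15 lay below 0 and 15 above, with a median of -0.00, and in KYSE510 the counts were again 15 and 15. Of all genes, 33.9% lay below 0 in KYSE150 and 56.8% in KYSE510. The KYSE150 count below 0 moved with the scaling, to 25 of 30 after centring, 24 with voom and 21 with quantile normalization. The shares of all genes there were 58.9%, 50.6% and 50.7%. Their median minus that of all genes was -0.09 in KYSE150, against -0.22 for the 49. None passed in either line with limma, while 5 and 1 of 30 had an unadjusted p under 0.05, against 18.1% and 6.35% of all genes. With the block 1 of 30 fell in KYSE150, against 1.66% of all genes. Of 57 genes of large-subunit assembly and RNA polymerase I, 43 lay below 0 in KYSE150 (33.9% of all genes), with a median of -0.12, beside the -0.13 of the 49 genes. In KYSE510, 31 of the 57 lay below 0, near the 56.8% of all genes. After centring, 53 of the 57 lay below 0 in KYSE150 (58.9% of all genes), with a median of -0.25. One of these, NOC3L, fell in KYSE150 (-0.45, adjusted p = 0.0412, limma), while 0 of the 57 passed there after centring. In the control cells 41 of the 57 were lower (33.7% of all genes) and 9 higher (28.3%) in KYSE510, with a median of -0.50. All these lists were chosen with earlier results of these data known, so the comparisons between them are a description only.

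Genes with and without an E-box in the promoter window were set side by side as a description. In KYSE150 the median change was -0.16 for the 20 genes with the motif, of which 17 lay below 0, and -0.09 for the 24 without it, of which 20 did. In KYSE510 both medians were -0.06. Between control cells the medians were -0.23 with the motif and -0.53 without it.

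The 49 genes lie on 20 chromosomes. Of these, 5 are hosts of 14 small nucleolar RNAs in their gene bodies: NOP56 with 5, NOP58 and WDR43 with 3 each, TSR1 with 2 and NOL11 with 1. Their KYSE150 changes were -0.24, -0.35, -0.25, -0.04 and -0.01. Exon bases are shared with a gene on the opposite strand by over 10% in 11 of the 49 genes and on the same strand in 3. Pseudogenes carry the names of 7 of them, with 17 for BMS1 and 10 for FCF1, so the reads of these genes may be split.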

How the data were processed

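RNA was extracted with TRIzol and sequenced as the labels describe, and the submitters' processing notes name GRCh38, HISAT2 and DESeq without versions. The authors deposited 1 table of RPKM values for 12 libraries with exon positions and lengths, and per the file headers its position columns are those that featureCounts writes. Filters, strand use and the annotation release are not given in the sources used here. RPKM multiplied by exon length gave whole reads for 100% of values (tolerance 0.01), 20035025 to 28202422 per library.

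Groups came from the labels and replicate numbers from the titles. Log2(RPKM + 0.5) was fitted with limma 3.58.1 in R 4.3.3 (4 group means, 12 libraries, mean-variance trend, 8 residual degrees of freedom), for 17823 genes with at least 0.5 RPKM in at least 3 libraries. Fold changes on that scale understate changes of low genes. P-values were two-sided and adjusted by Benjamini-Hochberg over all genes tested, with a threshold of 0.05. UTP3 was also tested by exact permutation (scipy 1.17.1). The fit was tested on simulated data with log2 changes of 0.5 or more in size and no replicate effect. That test does not cover the smaller changes of these genes after silencing. Deviations of same-numbered control and silenced libraries correlated at 0.147 to 0.415 in 6 of 6 pairs. Those of unlike numbers correlated at -0.385 to 0.184. In KYSE150 the second control correlated more with the first silenced library (0.184) than with the second (0.147). A fit with the number as a block (4 residual degrees of freedom) is given where it changes a call.

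The 49 genes, their roles and the other lists were chosen with earlier results of these data known. Values for every library are given for UTP3, for genes that passed with or without the block, for the 3 lowest p-values on each side of 0 in each line, for the 3 largest control differences each way, for the lowest and highest levels, and for 1 core gene a role. ESF1, DDX52 and others in short lists were named after their values were seen. Alternatives were 2 pseudocounts, no filter, centring, quantile normalization, voom on recovered reads with TMM, the block, fewer libraries in the fit, and leaving out each library. Positions and overlaps come from the deposited table, small nucleolar RNAs and pseudogene names from GENCODE 29, and promoter windows from RefSeq GRCh38.p14. The 5 genes NOP58, DDX52, DDX49, MPHOSPH10 and DCAF13 had no window.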

Additional observations from a re-analysis of the deposited data

How the results depend on the processing

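Over the alternatives tried, no gene of the 49 passed in KYSE510. In KYSE150, where 0 passed as reported, 1 passed with centring, 1 with quantile normalization and 1 with voom. The replicate block gave 5, and the block with centring, added after seeing the data, 3. The block with voom gave 27, where 15.2% of all genes passed. Of these 27, 26 fell, where 8.38% of all genes did, and IMP3 rose. Leaving out single libraries gave 0 to 3, with 3 without the third KYSE150 control. On the average over lines, where 0 passed, 1 passed with a pseudocount of 1, 1 with centring, 1 with quantile normalization, 1 with voom and 1 with the block (KRR1 each time), 4 with voom and the block, 2 with centring and the block, and 0 when single libraries were left out. For the difference between lines, voom with the block gave 7, and leaving out libraries 0. For the 49 genes, HCP5 and MYC, the block alone changed no call beyond those given here and in the report, and it does not apply between control lines. There, 37 genes passed as reported, against 62.0% of all genes. The count was 31 to 36 when libraries were left out, and 29 with centring, voom or only the libraries compared. It was 33 with quantile normalization and 34 with no filter. The shares of all genes in those fits are not given, so these counts are not set against all genes. The change of UTP3 in KYSE150 was -0.35 with centring (adjusted p = 0.241, limma), -0.33 with voom and the block, and -0.30 to -0.16 over left-out libraries. In KYSE510 it was -0.0080 to 0.12, turning below 0 without the third control, and between control lines -0.79 to -0.65. Of 670 other values for single genes, 637 kept direction and side of the threshold, 31 newly passed and 2 (NOC4L between control lines) no longer passed. The cause of these shifts was not tested. As deposited, no change of the 49 genes in KYSE150 passed 0.5 on the log2 scale in either direction. After centring ESF1 (-0.57), MPHOSPH10 (-0.53) and NAT10 (-0.51) did, and over left-out libraries the 49 genes reached -0.58 and 0.65. How far reads or the spread between libraries limit each gene was not separated.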
